A study of Oryza sativa with 6 samples.

Results

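Metallothioneins are small, cysteine-rich proteins that bind metal ions such as zinc, copper and cadmium through their thiol groups. Plant metallothioneins fall into types named by the spacing of their cysteines. In plants, cytosolic metal is also held by glutathione and by phytochelatins, peptides made from glutathione, so metallothioneins are 1 of several thiol-based metal ligands in a root cell. The rice genes were taken as all gene models whose description contains the word metallothionein, which gave 8 of 40745 rice gene models in a table of 42031 features. Their descriptions assign 3 genes to type 1, 3 to type 2 and 2 to type 3, and none to type 4, the type best known from seeds.

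Levels were compared in roots of wild-type rice (Oryza sativa) given 10 µM cadmium (Cd) with 0.5% Fo10 (Fo+Cd, 3 libraries) and in roots given 10 µM Cd alone (Cd, 3 libraries). The labels explain neither Fo10 nor the cultivar, and all 6 libraries received Cd, so no value here measures a response to Cd itself. Values are the authors' TPM, a transcript level scaled by transcript length and to a near-constant total per library. The number of reads behind them is unknown. Whether replicates came from separate plants or cultures is not in the labels, and the spread that the p-values measure may be technical.

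Between 20861 and 21126 features reached 1 TPM in a library. Pairs of libraries of the same group correlated at r = 0.957 to 0.977 in log2(TPM + 1), and pairs from different groups at r = 0.942 to 0.954. As a check of the tissue, 25 photosynthesis genes that mark shoots summed to 23.4 to 33.2 TPM in Fo+Cd and 23.9 to 26.0 TPM in Cd, and 7 of them were at 0 in all libraries. The 4 Casparian strip membrane proteins, which mark the root endodermis, summed to 181 to 193 TPM in Fo+Cd and 209 to 240 TPM in Cd, none of them at 0 in all libraries. The 156 genes with peroxidase in their description, of which 12 were at 0 in all libraries, summed to 12911 to 13613 TPM in Fo+Cd and 13625 to 14352 TPM in Cd. The Casparian strip and peroxidase sums were lower in every Fo+Cd library than in any Cd library, for peroxidases narrowly (13613 against 13625 TPM). Such separation in the lower direction was seen in 10.0% of the single features tested below. The part of these sums in the metallothionein values was not tested. In whole roots, fewer cells of a type and less RNA per cell cannot be told apart.

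The metallothionein transcript pool of these roots was mostly of type 1 in every library. The 8 genes together summed to 13677, 18101 and 16691 TPM in Fo+Cd replicates 1, 2 and 3, and to 14878, 16502 and 14429 TPM in Cd replicates 1, 2 and 3. This was 1.67% ± 0.235 of the listed TPM in Fo+Cd and 1.58% ± 0.113 in Cd (SD, n = 3 each), and the groups overlapped. Type 1 made up 90.3% ± 1.30 of that sum in Fo+Cd and 88.6% ± 1.20 in Cd. Type 2 made up 9.58% ± 1.35 in Fo+Cd and 11.1% ± 1.46 in Cd. Type 3 made up 0.130% ± 0.0835 in Fo+Cd and 0.354% ± 0.264 in Cd, and the groups overlapped. Its summed level moved in both directions with single libraries. The 21.1 TPM in Fo+Cd was 13.2 TPM without Fo+Cd replicate 2 and 28.4 TPM without Fo+Cd replicate 3. The 55.2 TPM in Cd was 34.2 TPM without Cd replicate 2 and 77.7 TPM without Cd replicate 1.

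The order of the 4 most abundant genes was the same in all 6 libraries. The type 1 gene BGIOSGA035979 stood first and had rank 2 or 3 among all features in every library. The type 1 gene BGIOSGA035740, described as protein 1A and named ERR26 in the table, came next, at rank 4 or 5. The remaining type 1 gene, BGIOSGA037630, ranked between 14 and 21, and the type 2 gene BGIOSGA005278 between 30 and 44. Neighbours among these 4 genes did not overlap over the 6 libraries, although the lowest value of BGIOSGA037630 (2162 TPM) was close to the highest of BGIOSGA005278 (1808 TPM). BGIOSGA005278 exceeded the next gene, MT2C (BGIOSGA019039, type 2), 25.8- to 48.4-fold within a library. MT2C and MT3A (BGIOSGA002954, type 3) could not be ordered by their spread: MT2C was the higher in 5 libraries and MT3A in 1. The remaining genes, MT3B (BGIOSGA019338, type 3) and the type 2 model BGIOSGA005280, were listed at 0 in all 6 libraries. BGIOSGA005280 and BGIOSGA005278 carry the same protein accession in their descriptions. How the authors assigned reads shared by such copies, or by the similar type 1 genes, is not given in the sources used here, so the division between these copies is uncertain.

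**Figure D1:**
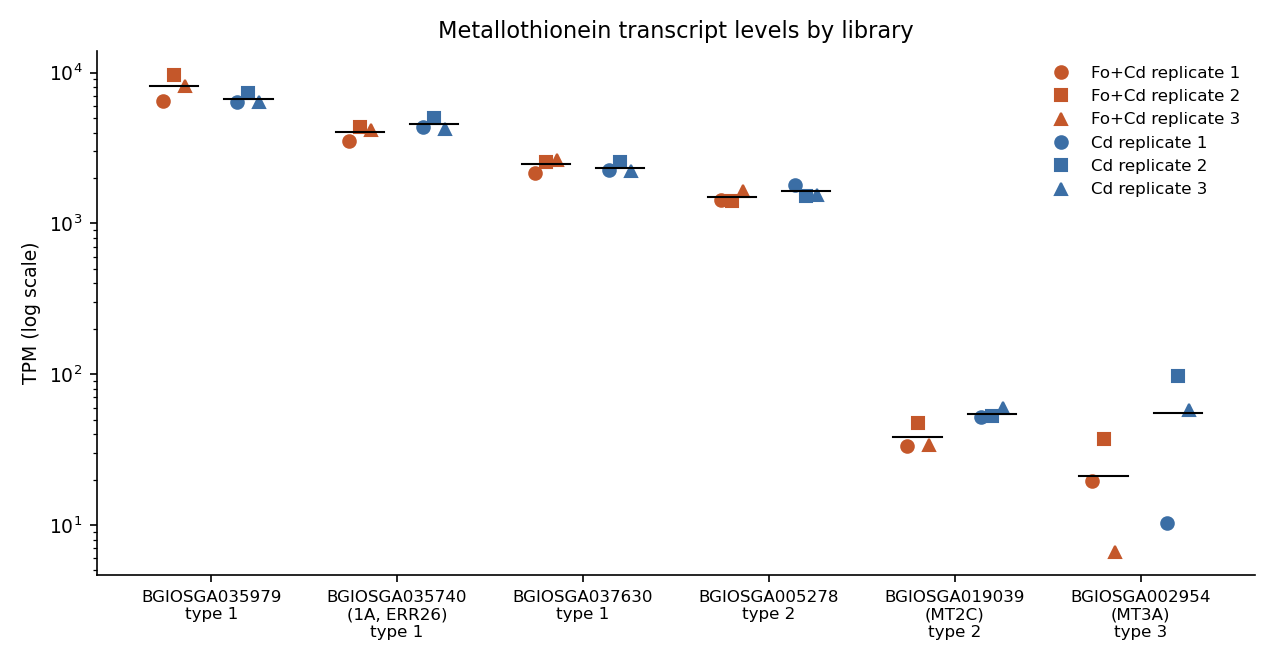
TPM on a log scale of the 6 metallothionein genes above 0, with 1 point per library, shapes for replicates and black lines for group means (3 libraries each). The 3 type 1 genes and BGIOSGA005278 lie at 1413 TPM or more in every library, whereas MT2C and MT3A lie at 97.3 TPM or less. MT3A spans 6.66 to 37.1 TPM in Fo+Cd and 10.3 to 97.3 TPM in Cd.

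The comparison of Fo+Cd with Cd asked whether Fo10 alters metallothionein transcripts in roots under Cd. No metallothionein passed the test: of the 6 tested genes 0 were called by limma at an adjusted p under 0.05, and 1, MT2C, had an unadjusted p under 0.05. Over all 21166 features that reached 1 TPM in 3 or more libraries, 2.45% were called and 15.4% had an unadjusted p under 0.05. The median log2 fold change was -0.15 over the 6 genes and 0.0025 over all tested features. The other 2 genes, at 0 throughout, did not pass the filter on low values. Fold changes are differences in log2(TPM + 1) and are too small for genes near 1 TPM. Their 95% intervals come from the same fit.

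Type 1 genes are known in several plants for high transcript levels in roots. BGIOSGA035979 was at 6501, 9688 and 8188 TPM in Fo+Cd replicates 1, 2 and 3, and at 6388, 7277 and 6344 TPM in Cd replicates 1, 2 and 3. Fo+Cd replicates 2 and 3 lay above all Cd libraries, while Fo+Cd replicate 1 lay within their range. The log2 fold change was 0.27 (SE 0.161, 95% interval -0.11 to 0.65, limma adjusted p = 0.479), an interval that covers ratios from 0.926 to 1.57.

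BGIOSGA035740 was at 3535, 4357 and 4181 TPM in Fo+Cd replicates 1, 2 and 3, and at 4362, 4991 and 4214 TPM in Cd replicates 1, 2 and 3. The groups overlapped, with 1 of the 3 Fo+Cd libraries above the lowest Cd library. The log2 fold change was -0.17 (SE 0.125, 95% interval -0.46 to 0.12, limma adjusted p = 0.563), and its sign turned with quantile normalization (0.07). BGIOSGA037630 was at 2162, 2559 and 2647 TPM in Fo+Cd replicates 1, 2 and 3, and at 2259, 2555 and 2206 TPM in Cd replicates 1, 2 and 3. These groups overlapped as well, and the log2 fold change of 0.07 had a 95% interval of -0.21 to 0.35 (limma adjusted p = 0.834).

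Although no type 1 gene was called, the shares of BGIOSGA035740 and BGIOSGA035979 differed between the groups by more than the spread between libraries. These shares were chosen after the values were seen, and the division of shared reads among the type 1 genes is uncertain. BGIOSGA035740 made up 29.0%, 26.2% and 27.8% of the summed type 1 TPM in Fo+Cd replicates 1, 2 and 3, and 33.5%, 33.7% and 33.0% in Cd replicates 1, 2 and 3. BGIOSGA035979 made up 53.3%, 58.3% and 54.5% in Fo+Cd, and 49.1%, 49.1% and 49.7% in Cd. The groups did not overlap for either share, while the share of BGIOSGA037630 did overlap, at 16.9% ± 1.31 in Fo+Cd and 17.3% ± 0.0631 in Cd (SD, n = 3 each). The 3 Cd libraries lay within 1 percentage point of each other for each gene, and the Fo+Cd libraries were more spread.

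The ratio of BGIOSGA035979 to BGIOSGA035740 was 1.84, 2.22 and 1.96 in Fo+Cd replicates 1, 2 and 3, and 1.46, 1.46 and 1.51 in Cd replicates 1, 2 and 3. A factor applied to a whole library leaves this ratio as it is. With quantile normalization, which gives every library the same value at each rank, it was 1.90 in Fo+Cd (SD 0) and 1.65 ± 0.143 in Cd. The normalized ratio follows only from the ranks of the 2 genes, which were 2 and 4 in Fo+Cd and 3 and 4 or 5 in Cd. It is therefore no separate check of the size of the difference. The ratio in the TPM as deposited differed between the groups, which does not tell which of the 2 genes differed. How reads shared by the similar type 1 genes were assigned is not given, and its part in the ratio was not tested. The ratio of BGIOSGA037630 to BGIOSGA035740 also did not overlap between groups, at 0.611 ± 0.0229 in Fo+Cd and 0.518 ± 0.00580 in Cd (SD, n = 3 each). Nor did the ratio of BGIOSGA035979 to BGIOSGA037630, at 3.30 ± 0.427 in Fo+Cd and 2.85 ± 0.0238 in Cd. Its lowest Fo+Cd library (3.01) was close to its highest Cd library (2.88). All 3 pairs of type 1 genes thus differed in their ratio without overlap. Any 2 of these ratios fix the third, and the shares restate the same values, so they are not separate observations. These shares and ratios were chosen after the values were seen, and no test was made of them. Of all tested features, 21.3% had TPM values that did not overlap between the groups, 11.3% higher and 10.0% lower in Fo+Cd, but this is a share of single features, and no matching share was computed for ratios or proportions.

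**Figure D2:**
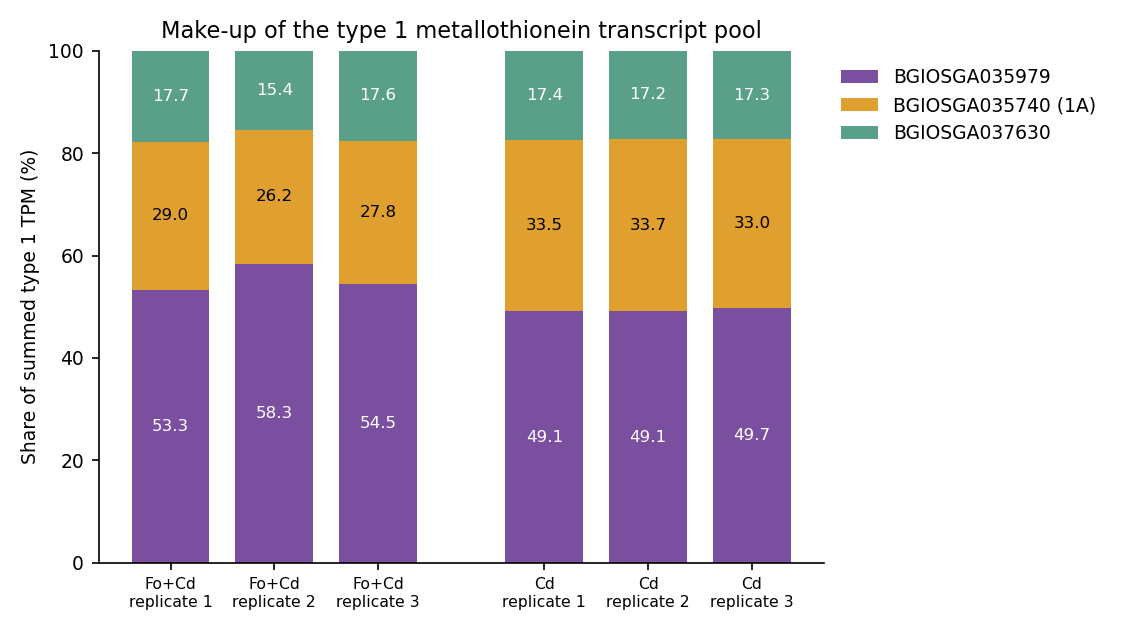
Share of the summed type 1 metallothionein TPM (%) held by each of the 3 type 1 genes, 1 bar per library, 3 Fo+Cd and 3 Cd libraries. BGIOSGA035740 holds 26.2% to 29.0% in Fo+Cd and 33.0% to 33.7% in Cd, and BGIOSGA035979 holds 53.3% to 58.3% in Fo+Cd and 49.1% to 49.7% in Cd.

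Type 2 metallothioneins are best known from leaves and stems. BGIOSGA005278 was at 1427, 1413 and 1635 TPM in Fo+Cd replicates 1, 2 and 3, and at 1808, 1529 and 1547 TPM in Cd replicates 1, 2 and 3. Fo+Cd replicate 3 lay above 2 of the 3 Cd libraries, so the groups overlapped. The log2 fold change was -0.13 (SE 0.113, 95% interval -0.39 to 0.14, limma adjusted p = 0.647).

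MT2C was at 33.2, 47.7 and 33.8 TPM in Fo+Cd replicates 1, 2 and 3, and at 51.6, 52.8 and 59.9 TPM in Cd replicates 1, 2 and 3. It was the only tested metallothionein whose groups did not overlap, and every Fo+Cd library was below every Cd library. Such separation in the lower direction was seen in 10.0% of all tested features, and in the higher direction in 11.3%. Its log2 fold change was -0.52 (SE 0.151, 95% interval -0.88 to -0.17), with an unadjusted p of 0.0101 and a limma adjusted p of 0.155. The interval covers ratios from 0.543 to 0.890. Without Fo+Cd replicate 2, the highest of its group, the adjusted p was 0.0421 (log2 fold change -0.69), while without any other single library it was 0.180 to 0.420.

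Type 3 metallothioneins are known in other plants from ripening fruit and from leaves. MT3A was at 19.7, 37.1 and 6.66 TPM in Fo+Cd replicates 1, 2 and 3, and at 10.3, 97.3 and 58.2 TPM in Cd replicates 1, 2 and 3. Its highest library exceeded the lowest 5.58-fold within Fo+Cd and 9.48-fold within Cd. The spread within groups was larger than the difference between them: the log2 fold change was -1.15, with a 95% interval of -3.65 to 1.36 (limma adjusted p = 0.640). Leaving out 1 library at a time moved the log2 fold change between -2.07, without Cd replicate 1, and -0.50, without Cd replicate 2. Of all tested features, 99.3% had a smaller residual standard deviation than MT3A, and so did 99.4% of the 6466 features with a mean level within 2-fold of its own. For the other 5 metallothioneins the share of tested features with a smaller residual standard deviation was 30.5% to 64.1%. Among the 5771 features with a mean level within 2-fold of that of MT2C, the share was 79.4%. For the remaining genes the share at a like level was 25% to 50%, of 4 to 104 features.

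**Figure D3:**
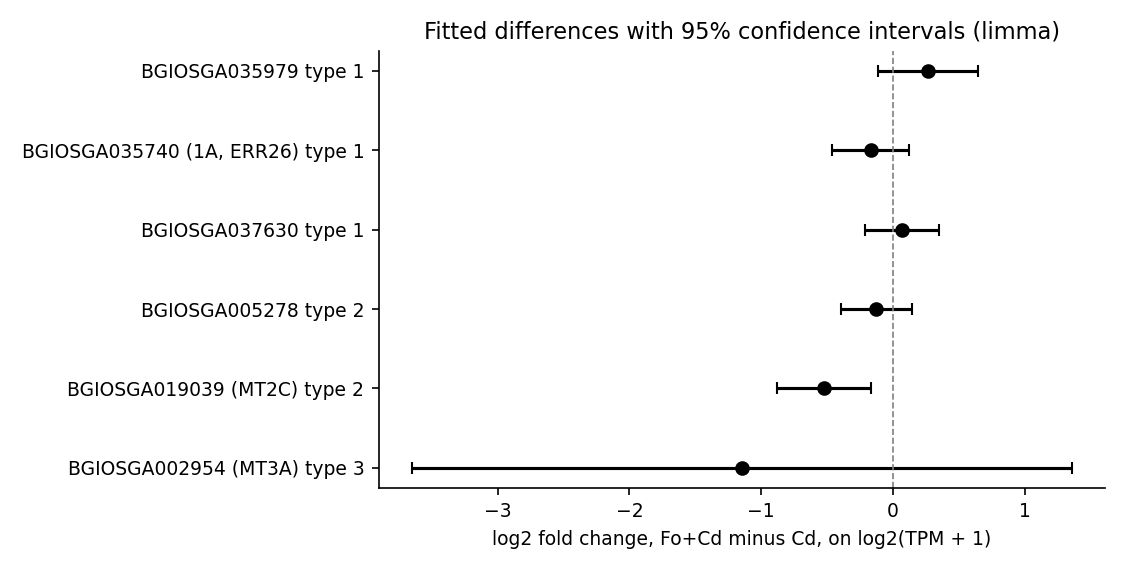
Log2 fold change (Fo+Cd minus Cd, on log2(TPM + 1)) of the 6 tested metallothionein genes, points with 95% confidence intervals from limma, 3 libraries per group. The interval of MT2C (-0.88 to -0.17) lies below 0 before adjustment for the number of features, and that of MT3A (-3.65 to 1.36) is the widest.

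Likeness in pattern was measured as Pearson's r of log2(TPM + 1) over the 6 libraries, with the most abundant gene, BGIOSGA035979, as the standard. With 6 libraries in 2 groups that share a normalization, r is a description, and 3150 described features with a mean of at least 10 TPM were candidates. The 5 most alike were a probable peroxisomal acyl-activating enzyme (BGIOSGA030666, r = 0.993), a thioredoxin (BGIOSGA018734, r = 0.984), a hexosyltransferase (BGIOSGA018021, r = 0.976), the probable histidine kinase HK3 (BGIOSGA000228, r = 0.973) and a gene described as a silicon efflux transporter (BGIOSGA011605, r = 0.973). In all 5 genes, as in BGIOSGA035979, Fo+Cd replicate 2 was the highest library, and none of the 5 was called. Among the metallothioneins themselves, BGIOSGA037630 followed BGIOSGA035979 most closely (r = 0.814), but 173 of the 3150 candidates had a higher r. For BGIOSGA035740 r was 0.25, for MT3A -0.016, for MT2C -0.19 and for BGIOSGA005278 -0.39.

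Other genes that make or use thiols and bind metals were taken by their descriptions as 8 lists. No description matched phytochelatin synthesis, which is not analysed here. The other 7 lists held 40 genes, of which 37 were tested, 0 were called higher and 2 were called lower. Over all tested features 1.72% were called higher and 0.723% lower. The lists can hold only described genes, and the share called in either direction varied with the description. It was 2.19% of 4288 gene models whose description cites a database, 91.2% of 226 whose description cites none, and 1.24% of 16550 without a description. The shares over all features are therefore not a like comparison for these lists.

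The 2 called genes act in the synthesis of glutathione and of cysteine, from which glutathione is made. Glutathione synthetase joins glycine to gamma-glutamylcysteine, and of 3 genes so described BGIOSGA018537 fell, with 31.1, 29.8 and 30.4 TPM in Fo+Cd replicates 1, 2 and 3, and 38.9, 46.2 and 47.4 TPM in Cd replicates 1, 2 and 3 (log2 fold change -0.52, SE 0.0974, limma adjusted p = 0.0462). Its groups did not overlap. The call was lost without any 1 library other than Cd replicate 1 (adjusted p 0.0838 to 0.182), with the replicate number as a block (0.109), with no filter on low values (0.0728) and without limma's trend and robust settings (0.0813). The other 3 genes of glutathione synthesis, with the glutamate-cysteine ligase GSH1-1 (BGIOSGA019114) among them, were not called, and the median log2 fold change of the 4 was -0.14.

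Serine acetyltransferase makes O-acetylserine, the precursor to which sulfide is added to form cysteine. The gene described as a probable serine acetyltransferase, BGIOSGA006919, fell, with 1.05, 1.79 and 1.64 TPM in Fo+Cd replicates 1, 2 and 3, and 4.72, 4.51 and 5.61 TPM in Cd replicates 1, 2 and 3 (log2 fold change -1.26, SE 0.177, limma adjusted p = 0.0145). Every Fo+Cd library lay below every Cd library. The call was lost without Fo+Cd replicate 3, Cd replicate 1 or Cd replicate 3 (adjusted p 0.0545 to 0.0711), while the log2 fold change without any 1 library was -1.35 to -1.13. It was -1.69 with a pseudocount of 0.1 and -0.62 with a pseudocount of 5, and the gene was called with both (adjusted p = 0.0206 and 0.0120, limma). Its description cites no database. Of 226 tested gene models described in that way 206 were called, against 94 of 4288 whose description cites one, so the wording of its description is not independent of its call. None of the 4 cysteine synthases of the list was called.

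None of the 28 tested genes in the other 5 lists was called by limma, and 4 of them had an unadjusted p under 0.05. Over all tested features 2.45% were called and 15.4% had an unadjusted p under 0.05. All 3 copper/zinc superoxide dismutases, enzymes that remove superoxide, had positive log2 fold changes (0.27 to 0.34, median 0.28), as did 50.4% of all tested features, and BGIOSGA025399 was at 62.8 ± 4.17 TPM in Fo+Cd and 49.2 ± 2.60 TPM in Cd (SD, n = 3 each, limma adjusted p = 0.110). BGIOSGA023756 was at 34.5 ± 3.17 TPM in Fo+Cd and 28.4 ± 3.05 TPM in Cd (adjusted p = 0.304, limma). Among 12 tested thioredoxins, small disulfide reductases, the smallest p values were those of BGIOSGA009302 (9.17 ± 0.459 TPM in Fo+Cd and 5.53 ± 1.77 TPM in Cd, limma adjusted p = 0.187) and of the abundant TRXH (BGIOSGA024701), at 3158 ± 353 TPM in Fo+Cd and 2541 ± 73.6 TPM in Cd (limma adjusted p = 0.255).

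All 4 tested copper chaperones and heavy-metal-associated proteins had negative log2 fold changes (-0.35 to -0.12, median -0.19), none with an unadjusted p under 0.05 in limma. Of all tested features 49.6% had a negative and 50.4% a positive log2 fold change. The most abundant, BGIOSGA006337, is described as the copper transport protein CCH, a cytosolic copper carrier in Arabidopsis, and was at 3069 ± 206 TPM in Fo+Cd and 3578 ± 54.4 TPM in Cd (SD, n = 3 each, limma adjusted p = 0.331). BGIOSGA009388, described as heavy metal-associated isoprenylated plant protein 9, was at 23.2 ± 4.36 TPM in Fo+Cd and 30.0 ± 5.86 TPM in Cd (limma adjusted p = 0.412). Of 5 tested genes of sulfate uptake and assimilation, an adenylyl-sulfate kinase (BGIOSGA011264) was at 7.75 ± 1.56 TPM in Fo+Cd and 9.90 ± 0.161 TPM in Cd (limma adjusted p = 0.356), and ATP sulfurylase 2 (BGIOSGA015713) was at 16.1 ± 1.70 TPM in Fo+Cd and 18.3 ± 1.89 TPM in Cd (limma adjusted p = 0.553). Of 4 glutaredoxins, which use glutathione to reduce disulfides, the smallest p values were those of BGIOSGA013954 (29.2 ± 3.51 TPM in Fo+Cd and 39.9 ± 11.0 TPM in Cd, limma adjusted p = 0.402) and BGIOSGA023411 (130.8 ± 9.98 TPM in Fo+Cd and 143.9 ± 5.85 TPM in Cd, limma adjusted p = 0.509).

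**Figure D4:**
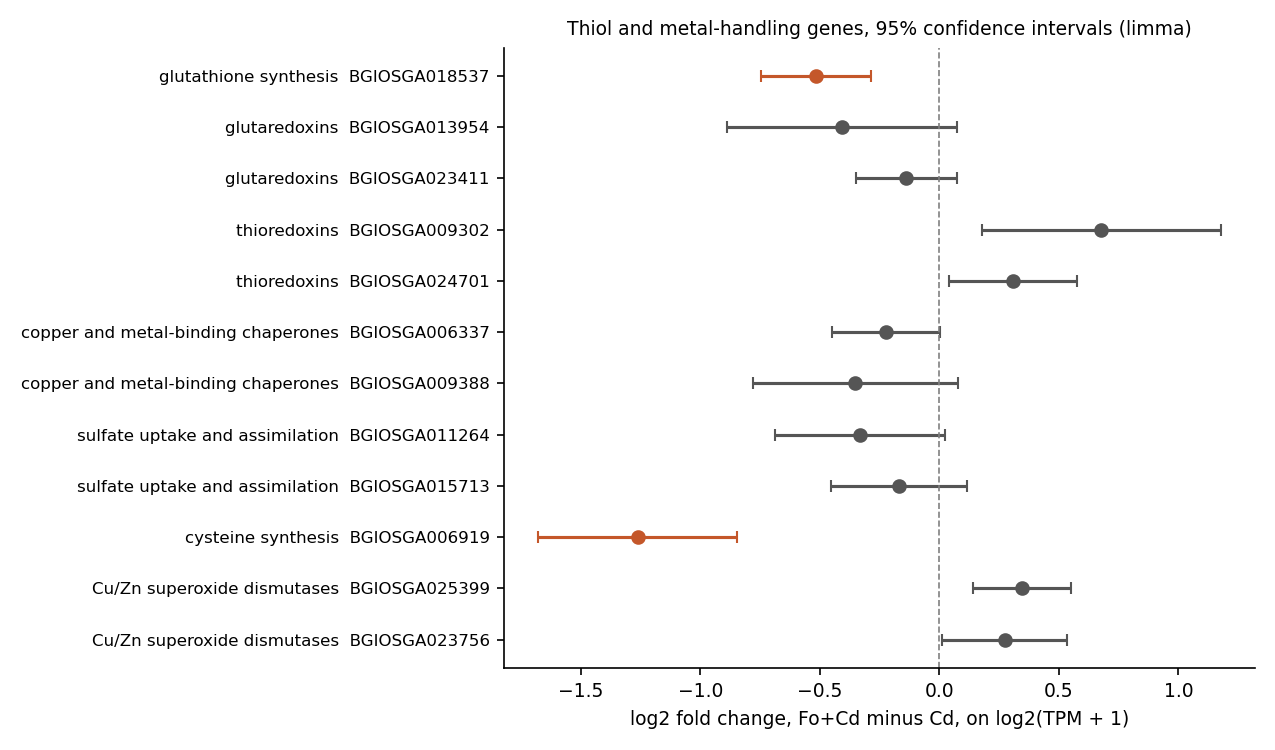
Log2 fold change (Fo+Cd minus Cd, on log2(TPM + 1)) with 95% confidence intervals from limma for the named genes of 7 lists of thiol and metal-handling genes, 3 libraries per group. The 2 genes in orange, BGIOSGA018537 (-0.52) and BGIOSGA006919 (-1.26), were called lower in Fo+Cd, and those in grey were not called.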

How the data were processed

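Root RNA was sequenced in 6 libraries from stranded, poly(A)-selected preparations of total RNA, per the labels' protocols. Aligner, counter and genome build: not given in the sources used here. The authors deposited values with no stated unit, taken as TPM from their sums of 963281 to 966767 per library. The 2 columns of group means were not used. Columns named Cd_Fo10 were matched to the samples titled Fo+Cd, the spellings being different, and each column to its sample by the replicate number in both names. Depth cannot be recovered from TPM, so no counting intervals or detection floors are given. No pair of libraries shared over 1.23% identical values above 0.

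Values were transformed to log2(TPM + 1), the filter asked for 1 TPM in 3 or more libraries, and Fo+Cd was tested against Cd with limma 3.58.1 in R 4.3.3 (trend and robust settings, no covariate, Benjamini-Hochberg adjustment over all tested features, called under 0.05). The test was checked on simulated data. Figures were drawn with matplotlib 3.10.9. Members, lists and tests were chosen with earlier results of these data known. Named genes were all metallothioneins and, per related list, every called member or otherwise the 2 with the smallest p, plus the 5 described features most like the most abundant metallothionein. Alternatives were scaling, pseudocount, filter, limma settings, a replicate block and leaving out each library.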

Additional observations from a re-analysis of the deposited data

How the results depend on the processing

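No metallothionein was called under any of 8 other processing settings, and 1 (MT2C) was called without Fo+Cd replicate 2 (BGIOSGA019039, log2 fold change -0.69, adjusted p = 0.0421). Leaving out 1 library at a time gave 0 to 1 called metallothioneins, and log2 fold changes of -2.07 to -0.50 for BGIOSGA002954, -0.19 to -0.047 for BGIOSGA005278, -0.69 to -0.43 for BGIOSGA019039, -0.23 to -0.080 for BGIOSGA035740, 0.13 to 0.42 for BGIOSGA035979 and 0.010 to 0.16 for BGIOSGA037630. One direction turned: BGIOSGA035740 had a log2 fold change of 0.070 with quantile normalization, which gives every library the same value at each rank, and this gene had rank 4 or 5 throughout. The ratio of BGIOSGA035979 to BGIOSGA035740, then set by ranks alone, was 1.90 in Fo+Cd and 1.65 in Cd. In the TPM as deposited, without 1 library, the ratio was 1.90 to 2.09 in Fo+Cd and 1.46 to 1.49 in Cd. These ratios and the sums by type were added after seeing the data. Of all features, 189 to 726 were called without 1 library, against 518 with all, and 353 with the replicate number as a block. Deviations of same-numbered libraries correlated weakly (r = -0.033, 0.085 and 0.073 for numbers 1, 2 and 3). Those of libraries with different numbers correlated at r = -0.12 to 0.069. These values do not settle whether the numbers are pairs, and the main test did not take them as pairs. The block called 0 metallothioneins and 0 genes of glutathione synthesis. Glutathione synthesis had 0 called genes also with no filter on low values and without trend and robust settings, and cysteine synthesis had 0 with a filter of 5 TPM, which BGIOSGA006919 did not pass. Both lists had 0 to 1 without 1 library. The causes were not tested. TPM hides depth, which limits what can be said of MT2C and MT3A and of the 2 genes at 0.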

Other observations

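MT3A was followed further because its spread within groups was wide, a choice made after its values were seen. Of 3150 described features with a mean of at least 10 TPM, the 5 with the highest Pearson's r to MT3A (BGIOSGA002954) over the 6 libraries were a guanosine nucleotide diphosphate dissociation inhibitor (BGIOSGA019885, r = 0.990), a probable ribosome biogenesis protein (BGIOSGA011288, r = 0.912), a ribosomal RNA feature (ENSRNA049495161, r = 0.909), an E3 ubiquitin-protein ligase (BGIOSGA019456, r = 0.906) and Protein G1-like2 (BGIOSGA020701, r = 0.901). The ribosomal RNA feature was listed at 0, 242 and 0 TPM in Fo+Cd replicates 1, 2 and 3, and at 0, 378 and 187 TPM in Cd replicates 1, 2 and 3. Those 3 libraries with a value above 0 are the 3 in which MT3A was highest. The dissociation inhibitor varied little, from 243 to 253 TPM in Fo+Cd and from 243 to 260 TPM in Cd, so a high r here does not mean a change of similar size. Among metallothioneins, MT2C was the most like MT3A (r = 0.639), and 182 of the 3150 candidates had a higher r. No test was made of these relations, and whether they reflect the plants or the libraries was not tested.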
